A study of Homo sapiens with 9 samples.

Results

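The 10 genes described here encode the neuropilins NRP1 and NRP2, the plexins PLXNA1, PLXNA2 and PLXND1, the secreted semaphorins SEMA3A, SEMA3C, SEMA3E and SEMA3F, and the netrin receptor UNC5B. They were taken by symbol from a table of 60606 genes, in which each of the 10 had 1 row, and the set was chosen because NRP1 and UNC5B were lower in irradiated lines than in the parental line. The levels of the 10 genes against the parental line are therefore given as a description, without a test, and only the difference between the irradiated lines was tested for them. RNA was sequenced from 3 cell lines with 3 libraries each. U87 is an established human glioblastoma line, grown here in medium with serum. GSCs are glioblastoma stem cells derived from U87, made radioresistant by repeated irradiation and kept in serum-free neural stem cell medium with B27, EGF and bFGF. Diff cells were differentiated from the radioresistant GSCs in medium with fetal bovine serum, from cells picked out of clonal colonies, so they may stand for few founder cells. Irradiation and culture medium changed together between U87 and GSCs and cannot be told apart in that comparison. Between GSCs and Diff cells the medium, the differentiation and the picking of colonies changed together and cannot be told apart either. The study's general statement on statistics speaks of biological replicates but does not name the RNA-seq, and no source used here says that the 3 libraries of a line came from separate cultures, so the p-values measure the spread between these libraries only.

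Class 3 semaphorins are secreted guidance cues that steer axons and shape vessels. Most of them bind a neuropilin, which holds the ligand but signals weakly on its own, and the neuropilin pairs with an A-type plexin, whose intracellular GTPase-activating domain loosens the actin cytoskeleton and integrin adhesion. NRP1 and NRP2 also bind VEGF family ligands next to the VEGF receptors, and NRP1 is the receptor for peptides with an exposed C-terminal arginine motif, such as the one released from the tumor-homing peptide iRGD that this study placed on liposomes. UNC5B is a receptor of netrin-1 that mediates repulsion of axons and vessel sprouts, and it is classed as a dependence receptor because it can drive cell death when its ligand is missing.

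The deposited values are log2(TPM + 1), where TPM gives a gene's transcripts per 1000000 in the library, corrected for gene length, so levels of different genes can be set side by side. Levels below are TPM transformed back from that scale, as mean ± SD of 3 libraries, and differences are log2 fold changes of TPM + 1 with the standard error (SE) of a limma model of all 9 libraries. The added 1 makes log2 fold changes of genes near or below 1 TPM smaller than their ratio of TPM. Testing was limited to genes whose TPM averaged over 1 in the 9 libraries, which left 22909 genes and kept the 10 described here. SEMA3F, with a mean of 1.37 TPM, passed only through GSCs, and SEMA3E, with a mean of 1.33 TPM, only through GSCs and Diff cells. A gene is called where its Benjamini-Hochberg adjusted p was under 0.05 and its log2 fold change was over 1 in either direction.

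Replicates of a line correlated at a Pearson r of 0.956 to 0.971 across tested genes, and no library was identical to another. RN7SL1, a noncoding RNA of the signal recognition particle, held 5.73% to 9.79% of all TPM and mitochondrial genes held 25.9% to 31.8%. Depth is not kept in TPM and is unknown here. Markers were checked as summed TPM per library. The 7 neural stem and glial markers summed to 41.2 to 45.5 TPM in U87, 36.5 to 40.7 in GSCs and 22.6 to 24.6 in Diff cells. Most of this was NES, which was highest in U87, at 33.0, 22.6 and 13.5 TPM on average in U87, GSCs and Diff cells. Of the defining stem cell markers, SOX2 stood at 0.0383 TPM in U87, 0.879 in GSCs and 0.153 in Diff cells, and PROM1, the gene of CD133, at 0.171, 0.507 and 0.0236 TPM, so both were highest in GSCs at under 1 TPM on average. FABP7 was called higher than in U87 (0.731 TPM) in both GSCs (4.91 TPM) and Diff cells (2.86 TPM). In U87, GSCs and Diff cells GFAP stood at 2.29, 0.809 and 0.909 TPM, OLIG2 at 7.27, 8.75 and 5.37 and S100B at 0.101, 0.134 and 0.617. The 6 neuronal markers summed to 10.8 to 14.5 TPM in U87, 13.5 to 14.0 in GSCs and 27.1 to 28.1 in Diff cells, mostly from MAP2 in Diff cells, while STMN2 was listed at 0 in every library.

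The order of levels among the 10 genes was not the same in the 3 lines. In U87, NRP1 led at 268 TPM and UNC5B followed at 129 TPM. PLXNA1, NRP2 and SEMA3C came next at 51.7, 48.3 and 43.4 TPM, and neighbours in this run had overlapping libraries. PLXNA2 stood at 26.5 TPM, PLXND1 and SEMA3A overlapped at 9.61 and 8.38 TPM, and SEMA3E and SEMA3F were lowest at 0.296 and 0.131 TPM, also with overlapping libraries. In GSCs, NRP2 led at 227 TPM, ahead of NRP1, and UNC5B and PLXNA2 had moved to the bottom of the order at 1.16 and 0.578 TPM. There, PLXNA1 overlapped with SEMA3C, and SEMA3E with UNC5B, whereas the other neighbours in the order were apart. In Diff cells, NRP2 and NRP1 again led at 131 and 80.6 TPM, SEMA3C overlapped with PLXNA1, PLXND1 with SEMA3A, PLXNA2 with UNC5B and UNC5B with SEMA3E, and SEMA3F was last at 0.278 TPM.

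**Figure D1:**
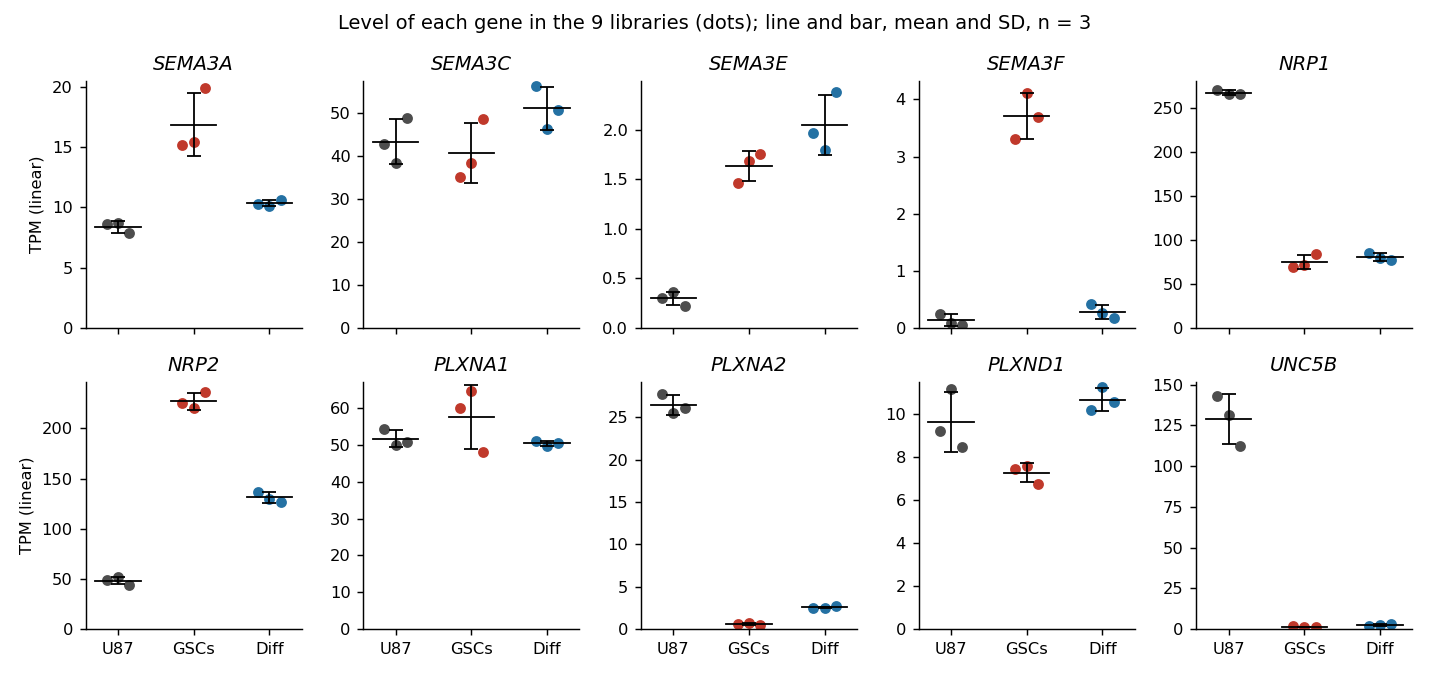
Levels of the 10 genes in each of the 9 libraries, in TPM on linear axes that start at 0 and have their own range per gene, with points for libraries and a line and bar for the mean and SD of 3. UNC5B and PLXNA2 drop from 129 and 26.5 TPM in U87 to 1.16 and 0.578 TPM in GSCs, NRP1 and NRP2 exchange places, and SEMA3F is above 1 TPM in GSCs and below it in the other lines.

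Promoter sequence is shown for NRP2, PLXNA2 and SEMA3F, the 3 members with the smallest adjusted p between Diff cells and GSCs. These are the 250 bases before the transcription start given by RefSeq on GRCh38.p14, printed 5′ to 3′ on the gene's own strand. Capitals mark the GC box GGGCGG, or CCGCCC where it lies on the other strand. The table of promoters held 7 of the 10 genes, without NRP1, SEMA3A and UNC5B. The NRP2 window lies at chr2:205682251-205682500 on the plus strand, within the span GENCODE 29 gives to the gene. The PLXNA2 window lies at chr1:208244385-208244634 on the minus strand and the SEMA3F window at chr3:50154808-50155057 on the plus strand.
NRP2: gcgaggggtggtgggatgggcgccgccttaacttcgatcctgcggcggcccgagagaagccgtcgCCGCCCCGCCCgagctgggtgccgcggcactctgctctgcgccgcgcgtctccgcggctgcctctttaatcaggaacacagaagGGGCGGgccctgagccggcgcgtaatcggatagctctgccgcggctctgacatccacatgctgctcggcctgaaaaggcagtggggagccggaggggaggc
PLXNA2: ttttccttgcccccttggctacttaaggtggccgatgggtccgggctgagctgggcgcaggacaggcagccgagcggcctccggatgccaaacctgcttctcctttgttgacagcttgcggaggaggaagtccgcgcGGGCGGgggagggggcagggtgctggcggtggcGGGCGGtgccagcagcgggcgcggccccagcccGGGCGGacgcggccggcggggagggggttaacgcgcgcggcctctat
SEMA3F: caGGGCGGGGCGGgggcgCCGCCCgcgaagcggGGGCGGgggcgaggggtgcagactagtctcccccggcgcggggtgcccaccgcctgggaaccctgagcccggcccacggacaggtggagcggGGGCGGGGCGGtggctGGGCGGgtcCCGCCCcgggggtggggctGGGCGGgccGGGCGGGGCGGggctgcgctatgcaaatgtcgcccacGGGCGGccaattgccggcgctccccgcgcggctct
All 3 windows are rich in CpG. NRP2 holds 29 CpG at a GC content of 70%, PLXNA2 27 at 72.4% and SEMA3F 34 at 82%, against medians of 11 and 58% over 27305 RefSeq promoters of the same length. Counted on both strands, with overlapping matches counted separately, the GC box occurs 3 times in NRP2, 3 times in PLXNA2 and 12 times in SEMA3F, and at least once in 42.3% of all promoters. CCAAT occurs once in SEMA3F and in 33.0% of all promoters. TATAAA, the E-box CACGTG and the AP-1 motif TGANTCA were also searched on both strands and have no match in these 3 windows. They occur in 11.1%, 6.49% and 6.60% of all promoters. The semaphorins SEMA3C and SEMA3E stand apart in base composition, with 2 and 6 CpG at 36.4% and 46.4% GC and no GC box.

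The neuropilins went in opposite directions between U87 and the irradiated lines. NRP1 (ENSG00000099250, chr10:33177492-33336262, minus strand, GRCh38) stood at 271, 266 and 266 TPM in the U87 libraries, at 68.8, 71.7 and 84.6 in GSCs and at 85.2, 79.2 and 77.5 in Diff cells. Each U87 library was above every library of both irradiated lines, while GSCs and Diff cells overlapped. The mean was 268 ± 2.75 TPM in U87, 75.0 ± 8.40 in GSCs and 80.6 ± 4.09 in Diff cells, 3.57-fold and 3.32-fold below U87 (log2 fold change −1.83 and −1.72, SE 0.077 for both). NRP1 remained one of the more abundant genes of the set in both irradiated lines. Diff cells and GSCs did not differ beyond the threshold, at a log2 difference of 0.11 (95% interval −0.069 to 0.283, limma adjusted p = 0.326). GSCs replicate 3 was the highest of its line, and without it the difference was 0.20 with a limma adjusted p of 0.0169.

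NRP2 (ENSG00000118257, chr2:205681990-205798133, plus strand) was measured at 49.2, 51.4 and 44.3 TPM in U87, at 225, 220 and 237 TPM in GSCs and at 137, 130 and 127 TPM in Diff cells. The 3 lines did not overlap, with GSCs highest and U87 lowest. Means of 48.3 ± 3.64, 227 ± 8.43 and 131 ± 5.16 TPM put NRP2 4.71-fold higher in GSCs than in U87 and 2.72-fold higher in Diff cells (log2 fold change 2.21 and 1.42, SE 0.064 for both). Between the irradiated lines NRP2 fell by 0.79 on the log2 scale from GSCs to Diff cells (95% interval −0.934 to −0.642, limma adjusted p = 3.84e-05).

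Summed over both neuropilins, the level was nearer between U87 and GSCs than that of either gene alone. NRP1 and NRP2 together came to 316 ± 4.84 TPM in U87, 302 ± 16.4 in GSCs and 212 ± 9.24 in Diff cells. NRP2 made up 15.3% ± 0.974 of this sum in U87, 75.2% ± 1.47 in GSCs and 61.9% ± 0.283 in Diff cells. For each NRP1 transcript there were thus 0.180 NRP2 transcripts in U87, 3.05 in GSCs and 1.63 in Diff cells. U87 and GSCs overlapped in the sum, and the libraries of the 3 lines did not overlap in the share of NRP2.

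**Figure D2:**
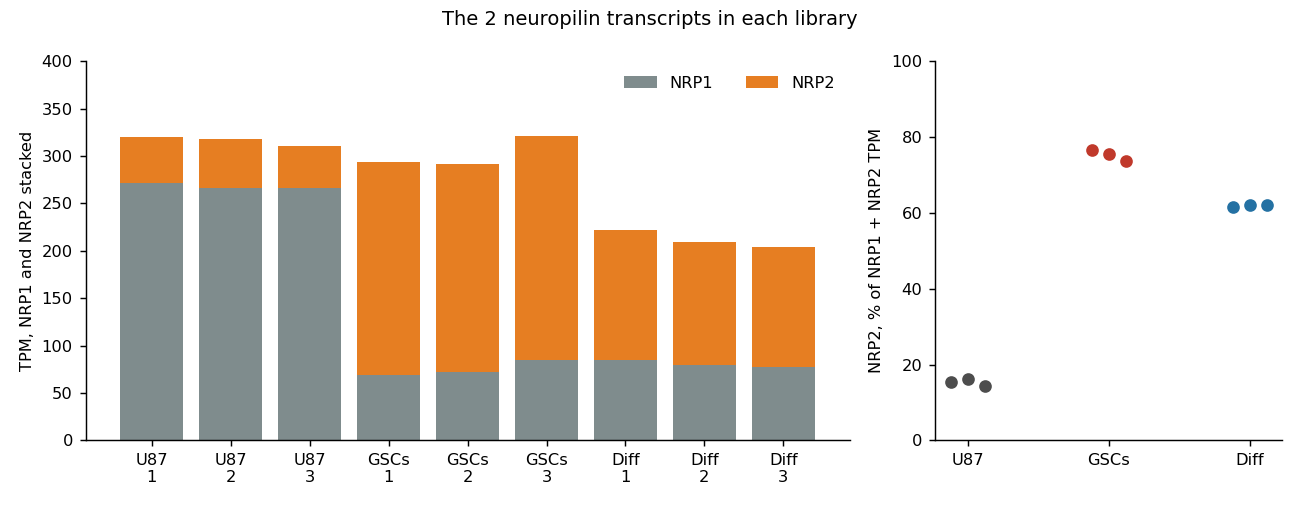
NRP1 and NRP2 in TPM in each of the 9 libraries, as stacked bars, and beside them the share of NRP2 in their sum in percent, with 1 point per library. NRP1 is the larger in the 3 U87 libraries, where NRP2 holds 15.3% of the sum on average, and NRP2 is the larger in the 6 irradiated libraries, at 75.2% in GSCs and 61.9% in Diff cells.

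UNC5B (ENSG00000107731, chr10:71212570-71302864, plus strand) had the lowest ratio to U87 among the 10 genes. Its libraries read 143, 131 and 113 TPM in U87, 1.49, 1.07 and 0.925 TPM in GSCs and 1.94, 2.26 and 3.16 TPM in Diff cells. No line overlapped another, and U87 was far above both irradiated lines. The means were 129 ± 15.4, 1.16 ± 0.291 and 2.45 ± 0.637 TPM, 111-fold lower in GSCs and 52.6-fold lower in Diff cells than in U87 (log2 fold change −5.91 and −5.24, SE 0.160 for both). UNC5B was 2.11-fold higher in Diff cells than in GSCs, a log2 difference of 0.67 (95% interval 0.304 to 1.03, limma adjusted p = 0.0117), and the 6 irradiated libraries lay between 0.925 and 3.16 TPM. With a pseudocount of 0.1 this difference was 1.01 (limma adjusted p = 0.00749), past the fold threshold. Diff replicate 3 was the highest of its line, and without it the ratio of Diff cells to GSCs was 1.81. Leaving out each library in turn gave log2 differences of 0.53 to 0.78. The highest limma adjusted p under any alternative was 0.0432.

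Among PLXNA1, PLXNA2 and PLXND1, only PLXNA2 differed by more than a factor of 2 between any of the lines. PLXNA2 (ENSG00000076356, chr1:208022242-208244320, minus strand), an A-type plexin that pairs with neuropilins and also binds transmembrane semaphorins, read 27.8, 25.5 and 26.1 TPM in U87, 0.608, 0.680 and 0.445 TPM in GSCs and 2.43, 2.52 and 2.65 TPM in Diff cells. The lines were apart, in the same order as for UNC5B. Its means of 26.5 ± 1.17, 0.578 ± 0.121 and 2.53 ± 0.109 TPM were 45.8-fold lower in GSCs and 10.5-fold lower in Diff cells than in U87 (log2 fold change −4.12 and −2.96, SE 0.105 for both). PLXNA2 was called higher in Diff cells than in GSCs, 4.38-fold in TPM and 1.17 on the log2 scale (95% interval 0.927 to 1.40, limma adjusted p = 6.73e-05). With a pseudocount of 0.1 the log2 difference was 1.97.

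PLXNA1 (chr3:126988594-127037392, plus strand), the other A-type plexin of the set, was near the same level in each line. It read 54.4, 49.9 and 50.9 TPM in U87, 60.1, 64.6 and 48.0 TPM in GSCs and 51.0, 49.8 and 50.5 TPM in Diff cells, and the lines overlapped in each comparison. The log2 difference of Diff cells from GSCs was −0.18 (95% interval −0.402 to 0.0495, limma adjusted p = 0.208), and it was −0.30 with an adjusted p of 0.00402 without GSCs replicate 3, the lowest of its line. PLXND1 (chr3:129555175-129606818, minus strand), which binds SEMA3E directly without a neuropilin, read 9.20, 11.1 and 8.47 TPM in U87, 7.43, 7.58 and 6.74 in GSCs and 10.2, 11.2 and 10.5 in Diff cells. GSCs were below both other lines, and U87 and Diff cells overlapped. From GSCs to Diff cells PLXND1 rose by 0.50 on the log2 scale (SE 0.108, limma adjusted p = 0.00734), a 1.47-fold difference in TPM. The 3 plexins together summed to 87.8 ± 3.16 TPM in U87, 65.4 ± 9.14 in GSCs and 63.6 ± 0.0983 in Diff cells, and PLXNA1 held 58.9%, 88.0% and 79.3% of this sum.

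Of the 4 secreted ligands, 3 were higher in GSCs than in U87 without overlap, where 55.8% of all tested genes did not overlap. Among these 3, SEMA3E and SEMA3F passed the filter only through lines in which they were high, which favoured a rise over U87. SEMA3F (ENSG00000001617, chr3:50155045-50189075, plus strand), which signals mainly through NRP2, read 0.250, 0.0896 and 0.0525 TPM in U87, 3.31, 4.12 and 3.69 TPM in GSCs and 0.409, 0.255 and 0.171 TPM in Diff cells. GSCs stood above both other lines, and U87 and Diff cells overlapped below 0.5 TPM. The mean in GSCs was 3.71 ± 0.405 TPM, 28.4-fold that of U87 (0.131 ± 0.105 TPM, log2 fold change 2.06, SE 0.159), and a pseudocount of 0.1 in place of 1 gave 4.13. U87 replicate 1 was the highest of its line, and without it the U87 mean was 0.0710 TPM and the ratio 52.2-fold. SEMA3F was called lower in Diff cells, at 0.278 ± 0.121 TPM, 13.3-fold below GSCs and 1.88 lower on the log2 scale (95% interval −2.24 to −1.52, limma adjusted p = 4.73e-05). Since SEMA3F passed the filter only through GSCs, a fall from GSCs was favoured before the test. The log2 difference is fitted for each gene alone and cannot change with the filter. Without a filter on low values the limma adjusted p was 7.02e-05.

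SEMA3A (chr7:83955777-84492724, minus strand), the classic repellent that binds NRP1, read 8.59, 8.72 and 7.84 TPM in U87, 15.2, 15.5 and 19.9 in GSCs and 10.3, 10.1 and 10.6 in Diff cells. The lines did not overlap, and GSCs were highest, at 2.01-fold the mean of U87 (log2 fold change 0.92, SE 0.107). From GSCs to Diff cells SEMA3A fell by 0.65 on the log2 scale (SE 0.107, limma adjusted p = 0.0019). SEMA3E (chr7:83363238-83649113, minus strand) read 0.304, 0.358 and 0.225 TPM in U87, 1.46, 1.69 and 1.75 TPM in GSCs and 1.97, 1.79 and 2.38 TPM in Diff cells. Both irradiated lines were above U87, 5.53-fold and 6.93-fold by their means, and their log2 fold changes of 1.02 and 1.23 became 2.14 and 2.45 with a pseudocount of 0.1. Since SEMA3E passed the filter only through the irradiated lines, a rise over U87 was favoured beforehand. The irradiated lines did not differ beyond the threshold for SEMA3E, with a log2 difference of 0.21 (95% interval −0.122 to 0.537, limma adjusted p = 0.309).

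SEMA3C (chr7:80742538-80922359, minus strand), which can use either neuropilin, was the most abundant of the 4 ligands in each line. It read 42.9, 38.4 and 48.8 TPM in U87, 35.1, 38.5 and 48.6 TPM in GSCs and 56.4, 46.3 and 50.8 TPM in Diff cells, and the lines overlapped in each comparison. The log2 difference of Diff cells from GSCs was 0.33 (95% interval 0.0259 to 0.635, limma adjusted p = 0.0894). Its adjusted p depended on the treatment of the data, at 0.033 with median-ratio scaling (0.39 on the log2 scale) and 0.0175 without GSCs replicate 3 (0.46). The 4 ligands summed to 52.2 ± 4.68 TPM in U87, 62.9 ± 9.79 in GSCs and 63.8 ± 5.25 in Diff cells. SEMA3C made up 83.0%, 64.6% and 80.1% of this sum.

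Counted over the set, GSCs and U87 did not overlap for 8 of the 10 genes, 4 higher and 4 lower in GSCs, where 55.8% of all tested genes did not overlap. Diff cells and U87 did not overlap for 6, 3 higher and 3 lower, against 55.2% of all tested genes. The set was chosen on these comparisons, so nothing is read from these counts, and both comparisons share the U87 libraries. The median log2 fold change of the 10 genes was 0.02 in GSCs and 0.16 in Diff cells against U87, beside 0.02 and −0.04 over all tested genes. The comparison of Diff cells with GSCs was not the stated reason for the choice. The set was, however, chosen with earlier results of these data known. Between Diff cells and GSCs, 7 of the 10 did not overlap, 4 higher and 3 lower in Diff cells, against 46.7% of all tested genes. The limma adjusted p was under 0.05 for 6 of the 10 at any fold, against 34.8% of all tested genes. NRP2, SEMA3A and SEMA3F fell and PLXNA2, PLXND1 and UNC5B rose from GSCs to Diff cells. With the fold threshold, PLXNA2 was called higher and SEMA3F lower, where 2.66% of all tested genes were called higher and 5.36% lower. SEMA3F, which passed the filter only through its level in GSCs, is among the 7, the 6 and the genes called. These counts and its call are no support for a pattern of the set. The median of the 10 genes was 0.16, beside −0.06 over all tested genes.

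**Figure D3:**
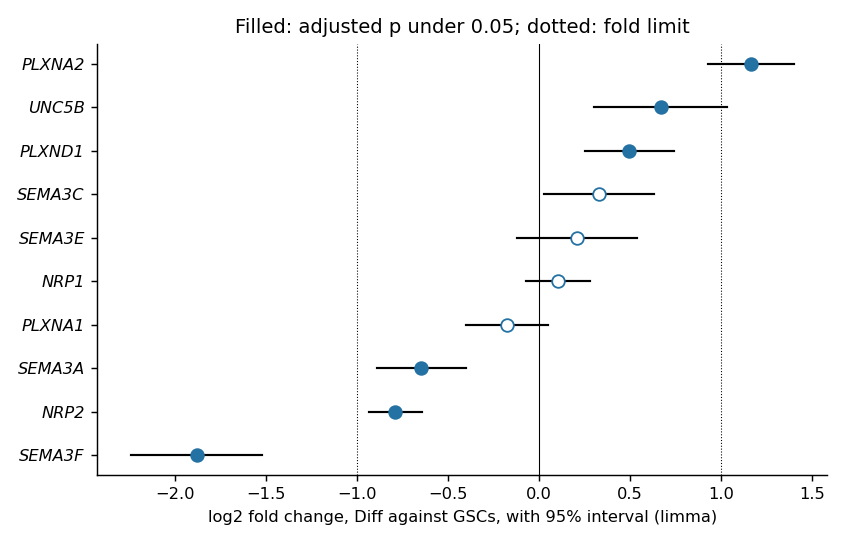
Log2 fold changes of TPM + 1 in Diff cells against GSCs for the 10 genes, as points with 95% intervals from limma, filled where the adjusted p was under 0.05, and dotted lines at the fold limit of 1 in either direction. The intervals of SEMA3F (−2.24 to −1.52), NRP2, SEMA3A, PLXND1, UNC5B and PLXNA2 (0.927 to 1.40) carry filled points.

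The genes next to each member on its chromosome were described with the nearest 12 tested genes on each side. For NRP1, the 24 neighbours were lower too, with log2 fold changes against U87 whose median was −0.75 in GSCs and −1.03 in Diff cells, and 20 and 23 of the 24 were below 0. NRP1 was below all but 1 of them in GSCs and all but 3 in Diff cells. With 25 genes on each side the medians were −0.56 and −0.88. The part of this stretch of chromosome 10 in the level of NRP1 was not tested.

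UNC5B, on the other arm of chromosome 10, and PLXNA2 lay below each of their neighbours. Around UNC5B the medians were 0.14 in GSCs and 0.17 in Diff cells, and around PLXNA2 0.46 and 0.33, and none of the 24 neighbours of either gene was as low as the member in either comparison. Of the UNC5B neighbours, 3 were also far below 0 in GSCs and Diff cells, named here after their values were seen. These were the antisense gene UNC5B-AS1 at −2.63 and −2.34, DDIT4 at −2.31 and −4.24 and COL13A1 at −1.83 and −3.21. NRP2 lay among neighbours with medians of −0.05 and −0.16, with 1 of 24 above it in each comparison. SEMA3F lay among neighbours at 0.00 and −0.05, with none of the 24 above it in GSCs. Around PLXNA1 the medians were 0.04 and −0.11, and around PLXND1 0.04 and 0.05.

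SEMA3A, SEMA3C and SEMA3E lie close together on chromosome 7 and share 15 of the 29 neighbours found for them in all, not counting these 3 genes themselves. Each of the 3 is also among the 24 neighbours of the others, and so enters their medians and counts below. Their neighbours were higher in the irradiated lines, with medians of 1.01 around SEMA3A, 0.97 around SEMA3C and 0.96 around SEMA3E in GSCs and of 0.68, 0.68 and 0.58 in Diff cells against U87. SEMA3A was within the range of its neighbours, 13 of which were above it in GSCs. SEMA3C was below 23 of its 24 neighbours in GSCs and 18 in Diff cells, and SEMA3E was below 11 and 2. With 25 genes on each side the medians in GSCs were 0.71, 0.73 and 0.66. The part of the neighbourhood in the levels of these 3 genes was not tested.

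Some exons of 3 members overlap genes on the opposite strand in GENCODE 29. The overlap covers 4.87% of the exon bases of NRP1 (AL121748.2), 1.06% of NRP2 (AC007362.1) and 2.28% of SEMA3F (SEMA3F-AS1), and 0 bases of the other 7 genes. The strand setting of the read counting is not given in the sources used here, so reads of these stretches cannot be assigned with certainty.

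The genes nearest in pattern to NRP1 and UNC5B were found by the Euclidean distance between log2 values of the 9 libraries, each gene centred on its own mean, among 9607 protein-coding genes with a mean TPM over 5. For NRP1 these were SPPL2A at a distance of 0.167, STXBP6 at 0.238, REEP3 at 0.269, ADAM12 at 0.315 and TNFRSF10D at 0.357. Of these only REEP3 and ADAM12 are on chromosome 10. For UNC5B the distances were larger, with CST6 at 1.45, IGFBP1 at 1.94, TIMP3 at 1.96, MAGEA6 at 2.07 and ANGPTL4 at 2.22. CST6, which encodes the protease inhibitor cystatin E/M, stood at 65.4 TPM in U87, 0.281 in GSCs and 0.362 in Diff cells. The 9 libraries form 3 groups, so a likeness over them is mainly a likeness of 3 means.

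The ligands, receptors and signal carriers around the 10 genes were followed as 8 lists of 87 genes, of which 57 could be tested. Against U87, 11 of these rose and 9 fell in GSCs (35.1% called), beside 9.52% and 7.53% of all tested genes, and their median log2 fold change was 0.17. Of the same genes 7 rose and 7 fell in Diff cells (24.6%), beside 5.92% and 6.36%, with a median of 0.06. Between Diff cells and GSCs 2 were higher and 3 lower (8.77%), near the 2.66% and 5.36% of all tested genes, with a median of −0.28 beside −0.06 over all tested genes. These lists were chosen with results of the same libraries known and are no independent evidence of a direction.

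Other semaphorins were called in both directions. SEMA7A, a membrane-anchored semaphorin that signals through integrins and plexin C1, fell from 397 ± 44.4 TPM in U87 to 112 ± 6.55 in GSCs and 101 ± 3.27 in Diff cells (log2 fold change −1.81 and −1.96, limma adjusted p = 5.17e-07 and 5.76e-07). SEMA4B fell by 1.49 and 1.65 on the log2 scale, and SEMA3B, a class 3 ligand like the 4 members, rose by 1.35 and 1.48. SEMA6A and SEMA6B rose in GSCs by 1.14 and 1.17. Of the 4 other plexins tested, none was called against U87, with PLXNB2 called higher in Diff cells than in GSCs at 1.02 (limma adjusted p = 4.42e-05), and SEMA5A called lower there at −1.05 (9.67e-05).

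On the netrin side, 7 of 16 genes could be tested. The receptors DCC, UNC5A, UNC5C and UNC5D had a mean TPM of at most 1 over the 9 libraries and were not tested. Among them, UNC5C was over 1 TPM in every Diff library. It read 0.339 to 0.634 TPM in U87, 0.649 to 1.15 in GSCs and 1.36 to 1.62 in Diff cells, without overlap of the lines. The ligand NTN1, also untested, stood at 0.656 TPM in U87, 0.498 in GSCs and 0.595 in Diff cells. NTN4, another netrin, stood at 2.39, 0.122 and 0.0564 TPM and was not tested either, and NTNG1, a membrane-anchored netrin-G, stood at 74.7, 66.8 and 64.6 TPM and was not called against U87. NEO1, the neogenin receptor of netrins and RGM proteins, rose from 19.6 to 44.5 TPM in GSCs (log2 fold change 1.14, limma adjusted p = 9.27e-07). RGMB, a neogenin ligand, was lower in Diff cells than in U87 at −1.75 and than in GSCs at −1.26.

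VEGFA, a ligand that the neuropilins share with the VEGF receptors, fell in both irradiated lines, in which NRP1 was lower and NRP2 higher than in U87. Of the ligands not called against U87, VEGFB was at 0.61 in GSCs and 0.54 in Diff cells, and VEGFC at −0.21 and −0.96. VEGFA stood at 304 ± 10.9 TPM in U87, 143 ± 12.2 in GSCs and 67.7 ± 2.70 in Diff cells, with log2 fold changes of −1.09 and −2.15 against U87 and −1.06 between Diff cells and GSCs (limma adjusted p = 2.99e-06, 1.12e-07 and 1.09e-05). KDR, the main VEGF receptor of vessels, rose in GSCs by 1.39, and PGF, a ligand below 3 TPM on average, was at −1.02 and −1.27 in GSCs and Diff cells. Of the Slit and Robo genes, SLIT3 rose by 1.23 in GSCs and 1.00 in Diff cells, and ROBO3 by 1.09 in GSCs.

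Of 20 plexin signal carriers tested, 2 rose and 4 fell in GSCs, and 3 rose and 2 fell in Diff cells, beside 9.52% higher and 7.53% lower of all tested genes in GSCs and 5.92% and 6.36% in Diff cells. RND3, a small GTPase without hydrolysis activity, rose from 109 to 779 TPM in GSCs and 394 TPM in Diff cells (log2 fold change 2.83 and 1.85). Collapsin response mediators, which carry the semaphorin signal to microtubules, were split, with CRMP1 higher by 1.75 and 1.43, and DPYSL2 at −1.73 and −2.18 and DPYSL4 at −2.61 and −3.33. The kinase FYN and the actin-severing cofilin CFL1 fell in GSCs by 1.16 and 1.07, and LIMK1, which phosphorylates cofilin, rose in Diff cells by 1.41. For iRGD, the paper reports high surface integrin αvβ3 and NRP1 protein by flow cytometry in U87 and Diff cells, with lower expression in Diff cells. Transcripts of the integrin subunits to which iRGD binds before it reaches NRP1 are another measure, and they changed unequally. ITGB3 and ITGB5 rose in GSCs by 1.81 and 1.02 and in Diff cells by 1.23 and 1.36, whereas ITGAV, their shared alpha subunit, fell in GSCs by 1.23 and was higher by 1.43 in Diff cells than in GSCs, at 22.1, 8.87 and 25.6 TPM in U87, GSCs and Diff cells.

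**Figure D4:**
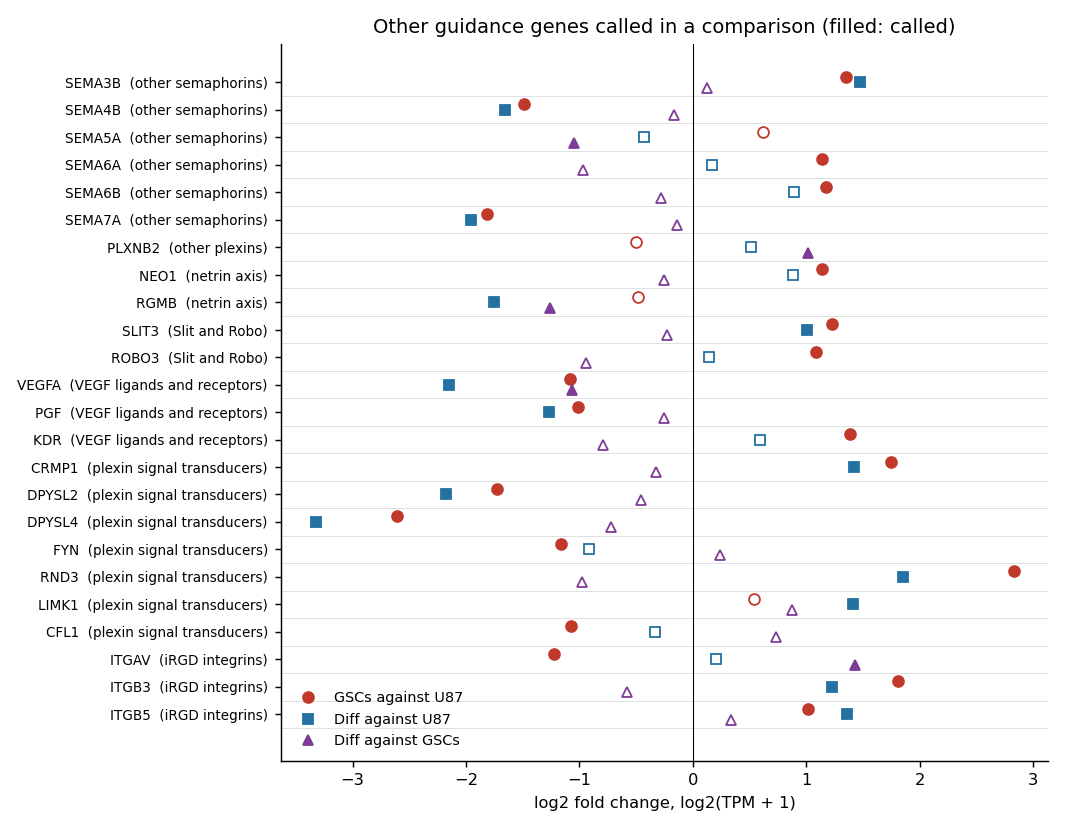
Log2 fold changes of TPM + 1 in the 3 comparisons for the 24 list genes called in at least 1 of them, with filled symbols for called and open symbols for not called. RND3 has the highest value at 2.83 in GSCs and DPYSL4 the lowest at −3.33 in Diff cells, both against U87.

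Several of the 10 genes are also expressed by endothelial and myeloid cells, so markers of these were read beside them. The 10 endothelial markers summed to 7.09 to 9.99 TPM in U87, 19.2 to 21.7 in GSCs and 7.37 to 9.34 in Diff cells, with 7 of the 10 under 1 TPM in every GSCs library. VWF (11.4 TPM) and PECAM1 (6.25 TPM) made up most of the sum in GSCs, while the defining marker CDH5 stood at 0.31 TPM there. The 7 microglia and macrophage markers summed to 13.0 to 16.4 TPM in U87, 4.81 to 5.65 in GSCs and 9.28 to 10.8 in Diff cells, with C1QA and TYROBP listed at 0 in every library. Nearly all of this sum was CSF1R at 14.98, 4.68 and 9.77 TPM, and the other 6 markers were under 1 TPM in every library, with ITGAM at 0.0297, 0.315 and 0.136 TPM. On average VWF, PECAM1, CDH5 and TIE1 were higher in GSCs than in U87, and TEK, CLDN5, ERG, ESAM, EMCN and EGFL7 lower. The endothelial sum was thus highest in GSCs, as NRP2, SEMA3A and SEMA3F were, without a shared direction of its markers. The level of CSF1R was highest in U87 and lowest in GSCs, as those of PLXNA2 and UNC5B were. All 9 libraries came from cultures of U87 or of lines derived from it. The part of these markers in the levels of the 10 genes was not tested.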

How the data were processed

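RNA-seq of U87, GSCs and Diff cells was analysed from 1 table of 9 libraries. The authors deposited log2(TPM + 1) per gene. The submitters' processing notes name GRCh38, FastQC 0.11.9, Trimmomatic 0.39, HISAT2 2.2.1, featureCounts 2.0.5 and R 4.2.0. The annotation release, the strand setting and any filter are not given in the sources used here. The sample records describe Magzol extraction and removal of ribosomal RNA, the methods Trizol and oligo(dT) beads. TPM keeps no depth, so no counting interval or floor was computed.

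Testing used limma 3.58.1 under R 4.3.3, 2-sided, with lmFit and a trended eBayes in 1 fit of all 9 libraries. It was restricted to genes averaging over 1 TPM, with Benjamini-Hochberg adjustment within each comparison over 22909 genes. The steps were tested on simulated data. Gene positions and exons came from GENCODE 29. Promoters came from RefSeq (GRCh38.p14), of which 1 start per gene was used. Tables and plots were made in Python 3.11.15 (matplotlib 3.10.9, numpy 2.4.6, pandas 2.3.3).

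The 10 genes, the lists and the tests were chosen with earlier results of these data known. Named were the 10 genes, up to 5 called genes per list and comparison with the highest absolute fold change, the marker genes, and the 5 genes nearest in pattern to NRP1 and to UNC5B. CFL1 was named outside this rule, with the smallest absolute fold change of the plexin signal carriers called in GSCs. NTN1, NTN4, NTNG1, VEGFB, VEGFC, 3 neighbours of UNC5B and the untested netrin receptors were named after their values were seen. The list of death pathway genes downstream of UNC5B is counted in the totals but not reported here. Alternatives covered the pseudocount, filter, scaling, samples in the fit, trend, threshold, replicate block and omission of each library.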

Additional observations from a re-analysis of the deposited data

Results flagged for a closer look

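For 6 of the 10 genes the effect against U87 differed between the irradiated lines by the test of the difference itself, which is the limma comparison of Diff cells with GSCs since both effects share the U87 libraries. The log2 fold change against U87 was higher in Diff cells than in GSCs by 1.17 for PLXNA2 (limma adjusted p = 6.73e-05), 0.67 for UNC5B (0.0117) and 0.50 for PLXND1 (0.00734). It was lower in Diff cells for NRP2, with a difference of −0.79 (limma adjusted p = 3.84e-05), SEMA3A, with −0.65 (0.0019), and SEMA3F, with −1.88 (4.73e-05). An adjusted p under 0.05 at any fold was reached by 34.8% of all tested genes in this comparison. The 3 Diff libraries did not overlap with the 3 GSCs libraries for any of these 6 genes, where 46.7% of all tested genes did not overlap. The 6 were picked by their adjusted p, so their lack of overlap adds no support. Only PLXNA2 and SEMA3F also passed the fold threshold, and SEMA3F passed the filter on low values only through its level in GSCs, which favoured a fall. Groups of 3 libraries are too small for a search for single outlying libraries.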

How the results depend on the processing

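Called genes numbered 3908 for GSCs and 2812 for Diff cells, each against U87, and 1836 between Diff cells and GSCs. A filter at a mean TPM over 5 tested fewer genes and called 2254, 1583 and 1038, and left 1 of the 10 genes called between Diff cells and GSCs in place of 2, since SEMA3F did not pass it. Adjusted p without the fold threshold called 11129, 9024 and 7982 genes, 45, 37 and 35 of the guidance genes in place of 20, 14 and 5, and 6 of the 10 genes. A pseudocount of 0.1 called 10 guidance genes between Diff cells and GSCs. With the replicate block the counts were 3917, 2810 and 1831 genes, 20, 14 and 5 guidance genes and 2 of the 10 genes. Replicate numbers did not pair the libraries, as the deviations of same-numbered libraries correlated at −0.0416 to 0.0489. Leaving out each library in turn gave 3797 to 3980, 2755 to 2811 and 1773 to 1907 genes, 19 to 22, 13 to 14 and 4 to 7 guidance genes, and 2 of the 10 genes in each case. Of 534 fold changes of the 10 genes under these alternatives 3 had another sign, each close to 0: SEMA3C in GSCs against U87 (0.0012 without GSCs replicate 1) and PLXNA1 in Diff cells against U87 (0.012 without RN7SL1 and mitochondrial genes, 0.0018 without U87 replicate 1). Many of the 534 could not move. The filter, the trend, the groups in the fit, the replicate block and omission of a library outside the comparison leave a gene's fold change as it is. The pseudocount of 0.1 moved log2 fold changes by over 1.5 times for SEMA3E against U87 (2.14 and 2.45), for SEMA3F in each comparison (4.13, 0.76 and −3.37) and, between Diff cells and GSCs, for PLXNA2 (1.97) and UNC5B (1.01, limma adjusted p = 0.00749), so that 3 of the 10 genes were called. It set the limit for genes near 1 TPM, as depth is unknown.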
